A study of Mus musculus with 4 samples.

Results

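The genes described here encode the proteins of the cytosolic ribosome. They were chosen by symbol, as every gene named Rpl or Rps with a number, plus the stalk proteins Rplp0, Rplp1 and Rplp2 and the laminin receptor-like protein Rpsa; the kinases named Rps6k and symbols that contain -ps were left out. This gave 84 genes, all of them listed in both comparisons, of 14823 genes that both comparisons list and 15881 that either lists. Of the 84 genes, 45 encode proteins of the large subunit and 31 proteins of the small subunit. Another 7 are paralogs of a ribosomal protein gene (Rpl22l1, Rpl36al, Rpl39l, Rpl3l, Rpl7l1, Rps27l and Rps4l). The last, Rps19bp1, matches the naming rule but encodes a protein that binds Rps19 and is no part of the ribosome.

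A ribosome is assembled from ribosomal RNA and one copy of most of these proteins, so their mRNAs are made in balanced amounts and rank among the most abundant of a growing cell. The small subunit reads the mRNA, the large subunit joins the amino acids, and the stalk proteins recruit the elongation factors. Many of these mRNAs begin with a run of pyrimidines, the TOP motif, through which the kinase complex mTORC1 sets their translation. In dendritic cells, the antigen-presenting cells studied here, protein synthesis is known to be regulated after stimulation with bacterial products.

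Bone marrow-derived dendritic cells came from C57BL/6 mice aged 8 weeks. KO cells lacked GOLPH2, a Golgi membrane protein encoded by Golm1, and WT cells carried it. Stimulated KO and WT cells had 16 h of IFN-gamma priming followed by 4 h of LPS, and unstimulated KO and WT cells had neither. Strand-specific mRNA sequencing gave 4 libraries, 1 for each of these groups, so the KO and WT cells of a state were compared without replicates.

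Deposited for each state were a log2 ratio of KO over WT and a p-value for each gene, from which whole read numbers were recovered for each of the 84 genes in all 4 libraries. The inferred library totals were 36.8 M reads (1 M is 1000000) in stimulated KO cells and 37.7 M reads in stimulated WT cells, and 39.6 M reads in unstimulated KO cells and 34.7 M reads in unstimulated WT cells. Levels are given as CPM, a gene's reads per 1000000 reads of its library total. Ratios below are log2 KO/WT after removing the ratio of the library totals, each with the standard error that the read numbers allow, which holds counting error only. Golm1 stood at 25.0% of its WT level in stimulated KO cells and at 23.5% in unstimulated KO cells. A gene is called higher or lower where the p-value of the authors' deposited table passed 0.001 after Benjamini-Hochberg adjustment over all genes of that table; such a call compares 2 libraries and not the conditions behind them. The dendritic cell markers were present, with a summed 7065 CPM in stimulated KO cells against 6534 in stimulated WT cells and 5919 in unstimulated KO cells against 5596 in unstimulated WT cells. The stimulated sums hold all 10 markers and the unstimulated sums the 9 whose reads were recovered, so the states cannot be compared by them. Of the 10 markers, 7 were called higher and 0 lower in KO cells of each state. Among all genes with at least 5000 reads in both libraries, 28.9% were called higher in stimulated and 24.8% in unstimulated KO cells. The median counting error of the markers, 0.02 in each state, was near that of those genes. The median ratios of the 10 markers were 0.11 in stimulated and 0.18 in unstimulated cells, and their part in the results below was not tested.

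Messages for ribosomal proteins were slightly and widely more abundant in KO than in WT cells in both states. Among the 84 genes, 68 were called higher and 0 lower in stimulated KO cells, where 5.36% of all genes in that comparison were called higher and 6.54% lower. In unstimulated KO cells, 53 were called higher and 0 lower, where 4.7% of all genes were called higher and 4.27% lower. The median log2 ratio of the 84 genes was 0.14 in stimulated cells, where the median of all genes was 0.01. In unstimulated cells it was 0.11, where the median of all genes was 0.00. Of the 84 genes, 51 were called higher in stimulated and in unstimulated KO cells and 0 were called lower in the pair of states, where 2.96% of all genes were called higher and 2.23% lower in both; 17 were called in stimulated cells alone, 2 in unstimulated cells alone and 14 in neither. In bulk RNA, fewer cells of a type and less RNA per cell cannot be told apart.

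High read numbers make small differences easier to call, and these genes are deeply read. The background was therefore also taken over genes with at least 5000 reads in both libraries of a comparison, a limit set after the values were seen and one that 63 of the 84 genes passed. Of these 63, 61 (96.8%) were called higher in stimulated KO cells, against 28.9% of all genes at that depth, and 24.0% of those genes were called lower. In unstimulated KO cells 46 of the 63 (73.0%) were called higher, against 24.8% of all genes at that depth, and 19.3% were called lower. The same 46 were called higher in both states, which held for 19.6% of the 1112 genes with that depth in all 4 libraries. At this depth the ratios of the 63 genes ran from 0.04 to 0.28 in stimulated cells, all above 0. In unstimulated cells they ran from -0.02 to 0.30, with 60 above 0.

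**Figure D1:**
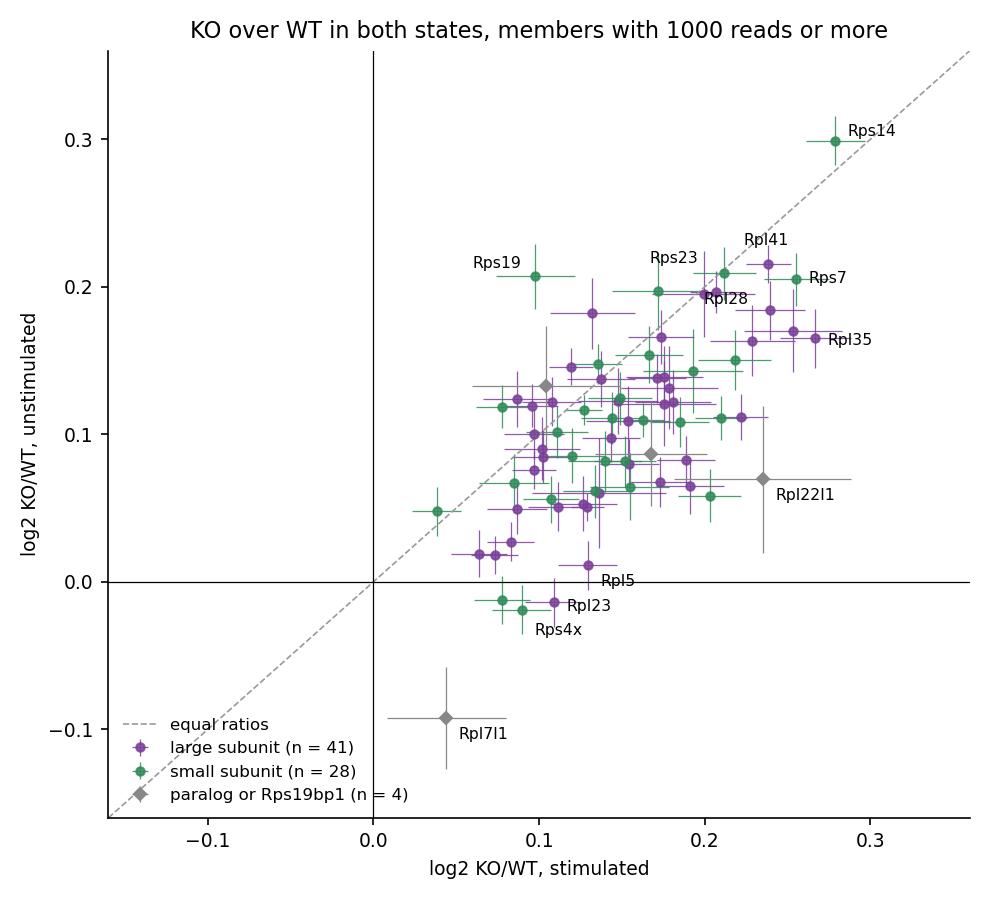
Log2 KO/WT ratio in stimulated cells (horizontal axis) and in unstimulated cells (vertical axis) for the 73 of 84 genes with at least 1000 reads in every library; bars are counting standard errors and the dashed line marks equal ratios. All points lie right of 0, Rps14 is highest with 0.28 and 0.30, and Rpl7l1 is lowest in unstimulated cells with -0.09.

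The differences were small in size. In stimulated cells 5 of the 84 genes passed 1.2-fold upward and 0 downward, where 13.5% of all genes did so upward and 14.9% downward. These were Rps14 and Rpl35 and, with few reads, Rpl3l, Rpl30 and Rpl39l. In unstimulated cells 5 passed it upward and 1 downward, where 14.8% of all genes did so upward and 11.3% downward. Those upward were Rps14, Rpl14, Rplp2, Rpl3l and Rpl39l, and the gene downward was Rpl30. At 5000 reads or more, the shares of all genes past 1.2-fold were 2.86% upward and 3.65% downward in stimulated cells, and 1.95% and 2.27% in unstimulated cells. The authors' deposited table marked 1 of the 84 genes as changed, Rplp2 in unstimulated cells, where 1.05% of all genes were marked, and 0 in stimulated cells, where 1.04% were marked.

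Summed over the 84 genes, ribosomal protein messages took a larger share of the reads in KO libraries. The share was 2.50% (95% Wilson interval 2.50 to 2.51) in stimulated KO cells against 2.27% (2.26 to 2.27) in stimulated WT cells. In unstimulated cells it was 2.84% (2.83 to 2.84) in KO against 2.64% (2.64 to 2.65) in WT. These intervals cover counting error only.

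The start of a TOP mRNA is a C followed by pyrimidines, so the annotated transcription starts were read for 63 of the 84 genes that the RefSeq promoter table (GRCm38.p6) holds. A run of at least 7 C or T within 15 bases either side of the start, read on the gene's own strand, was found in 31 of the 63 (49.2%) and in 18.1% of 10962 genes of both comparisons. The letters CTTTCC, which can lie within such a run, on that strand in the same window were found in 14.3% of the 63 and in 1.34% of all. In the 300 bases from 250 before to 50 after the start, on either strand, CCGGAAG, a core of ETS-family sites, was found in 38.1% of the 63 and in 16.7% of all. AAGATGGC, a core of YY1 sites, was found in 7.94% against 4.44%, and CACGTG, the E-box read by Myc, in 7.94% against 9.75%. These searches were chosen after the values were seen, and a match is no measure of binding or of the start used in these cells.

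The 30 bases around the start are shown for the 6 genes with the highest and the 6 with the lowest mean ratio of both states, among genes with at least 5000 reads in each library and an entry in that table. Rps14, which has the highest mean ratio at this depth, is not among them because sequence of its chromosome is not shown here. Capitals mark the longest run of C or T, and the start is base 16. They are shown because genes with and without a long run stand at both ends of the ratios. The highest genes come first.
Rps7, chr12:28635939-28635968, minus strand: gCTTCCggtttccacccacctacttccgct
Rpl41, chr10:128549154-128549183, minus strand: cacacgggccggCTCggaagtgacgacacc
Rpl35, chr2:39005117-39005146, minus strand: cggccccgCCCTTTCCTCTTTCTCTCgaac
Rpl28, chr7:4792950-4792979, plus strand: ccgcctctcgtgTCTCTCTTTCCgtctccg
Rps23, chr13:90923107-90923136, plus strand: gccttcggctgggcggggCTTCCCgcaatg
Rpl13a, chr7:45128731-45128760, minus strand: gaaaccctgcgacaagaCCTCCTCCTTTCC
The lowest genes follow, from Rps3a1 upward.
Rps3a1, chr3:86142654-86142683, minus strand: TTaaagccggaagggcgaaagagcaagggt
Rps4x, chrX:102189377-102189406, minus strand: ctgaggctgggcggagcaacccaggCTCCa
Rpl10, chrX:74270801-74270830, plus strand: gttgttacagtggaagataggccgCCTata
Rpl23, chr11:97782425-97782454, minus strand: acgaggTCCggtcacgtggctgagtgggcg
Rpl4, chr9:64173372-64173401, plus strand: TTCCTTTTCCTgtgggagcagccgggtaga
Rpl7a, chr2:26910792-26910821, plus strand: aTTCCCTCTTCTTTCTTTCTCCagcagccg

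The longest runs were 18 bases in Rpl35, 13 in Rpl13a and 11 in Rpl28 at the high end, and 21 in Rpl7a and 11 in Rpl4 at the low end. The 31 genes with a run of at least 7 had median ratios of 0.15 in stimulated and 0.11 in unstimulated cells, with 25 and 19 called higher. The 32 without had medians of 0.13 and 0.11, with 27 and 20 called higher. The 9 genes with CTTTCC had medians of 0.20 and 0.17, and the 54 without it 0.13 and 0.11. Among the genes shown, a long pyrimidine run within 15 bases of the annotated start stood at both ends of the ratios. Any part of the start sequence in the ratios was not tested. The run of Rpl4 ends before the annotated start and that of Rpl13a begins after it.

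Of the large-subunit genes, 39 of 45 were called higher in stimulated and 33 of 45 in unstimulated KO cells, and 0 were called lower in either state. Their median ratio was 0.14 in stimulated and 0.11 in unstimulated cells. Rpl35, which encodes a protein near the exit of the nascent chain, had 266.5 CPM in stimulated KO cells against 221.5 in WT, and 303 in unstimulated KO cells against 270.4 in WT. Its log2 ratio was 0.27 ± 0.02 in stimulated and 0.17 ± 0.02 in unstimulated cells, and KO lay above WT in both states. Rpl41, the shortest ribosomal protein, had 647 CPM in stimulated KO cells against 548 in WT, and 717 in unstimulated KO cells against 617 in WT. Its ratios, 0.24 ± 0.01 and 0.22 ± 0.01, were among the most precise of the group and nearly equal in the 2 states.

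Rpl32 and Rpl28, structural proteins of the large subunit, also lay higher in KO than in WT cells. Rpl32 had 139 CPM in stimulated KO cells against 116 in WT, and 152 in unstimulated KO cells against 135 in WT, which gave ratios of 0.25 ± 0.03 and 0.17 ± 0.03. Rpl28 had 269.9 against 229 CPM in stimulated KO and WT cells, and 310.2 against 273 in unstimulated KO and WT cells, with ratios of 0.24 ± 0.02 and 0.18 ± 0.02. For Rpl35, Rpl41, Rpl32 and Rpl28 both KO libraries were called higher than the WT library of their own state. Rpl13a, which in human monocytes also takes part in the translational silencing that follows IFN-gamma, stood at 507 against 439.5 CPM in stimulated KO and WT cells, and at 613 against 535 in unstimulated KO and WT cells. Its ratios were 0.21 ± 0.02 and 0.20 ± 0.01; it was named after its values were seen.

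Several large-subunit genes were called in stimulated cells alone. Rpl5 and Rpl23, which besides their place in the ribosome can bind the p53 regulator Mdm2, had ratios of 0.01 ± 0.02 and -0.01 ± 0.02 in unstimulated cells. Rpl5 had 363 CPM in stimulated KO cells against 332 in WT, and 396 in unstimulated KO cells against 393 in WT. Rpl23 had 384 in stimulated KO cells against 356 in WT, and 419 in unstimulated KO cells against 423 in WT. Both were called higher in stimulated KO cells, with ratios of 0.13 ± 0.02 and 0.11 ± 0.02, and neither was called in unstimulated cells. Rpl10, which joins the large subunit late in its maturation, followed with 561 against 533 CPM in stimulated KO and WT cells and 651 against 643 in unstimulated KO and WT cells. It was called in stimulated cells at 0.07 ± 0.01 and not in unstimulated cells at 0.02 ± 0.01. Rpl7 was called in neither state, with ratios of 0.06 ± 0.02 and 0.02 ± 0.02.

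Rpl14 differed from this order. It had 22.8 CPM in stimulated KO cells against 21.7 in WT, a ratio of 0.07 ± 0.07 that was not called. In unstimulated cells it had 27.7 in KO against 21.8 in WT, and its ratio of 0.34 ± 0.07 was called. Rpl30 and Rpl34 carried too few reads to compare, with 9 and 48 reads in stimulated KO cells against 7 and 59 in WT, and 8 and 63 reads in unstimulated KO cells against 12 and 62 in WT.

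Of the small-subunit genes, 27 of 31 were called higher in stimulated and 20 of 31 in unstimulated KO cells, and 0 were called lower. Their median ratio was 0.14 in stimulated and 0.11 in unstimulated cells, the same to this precision as in the large subunit. Rps14, a protein of the subunit's platform, had the highest ratios of the well-read genes. It had 380.4 CPM in stimulated KO cells against 314 in WT, and 469 in unstimulated KO cells against 381 in WT, differences of 21.3% and 23.0%. The log2 ratios were 0.28 ± 0.02 and 0.30 ± 0.02. Rps7, whose human gene is among those mutated in Diamond-Blackfan anaemia, had 319.6 CPM in stimulated KO cells against 268 in WT, and 378 in unstimulated KO cells against 328 in WT. Both of its ratios were called, at 0.26 ± 0.02 and 0.21 ± 0.02. Rps23, which lies at the decoding centre, had equal ratios of 0.21 ± 0.02 in both states, from 332 against 286 CPM in stimulated KO and WT cells and 380.4 against 329 in unstimulated KO and WT cells.

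Rps19, the small-subunit protein most often mutated in human Diamond-Blackfan anaemia, had its higher ratio in unstimulated cells. It had 203 against 189.6 CPM in stimulated KO and WT cells, and 246 against 213 in unstimulated KO and WT cells. The ratios, 0.10 ± 0.02 and 0.21 ± 0.02, were both called. Rps4x and Rps3a1, other proteins of the small subunit, were at the low end. Rps4x had 361 against 339.7 CPM in stimulated KO and WT cells, and 402 against 407 in unstimulated KO and WT cells. Rps3a1 had 403 against 382 in stimulated KO and WT cells, and 438 against 441 in unstimulated KO and WT cells. Both were called higher in stimulated KO cells, at 0.09 ± 0.02 and 0.08 ± 0.02, and neither was called in unstimulated cells, at -0.02 ± 0.02 and -0.01 ± 0.02.

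Rps27 had 53 reads in stimulated KO cells against 55 in WT, and 49 in unstimulated KO cells against 45 in WT, too few to show a difference of the size seen elsewhere.

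Rplp0 and Rpsa had the highest CPM of the 84 genes. Rplp0, the base of the stalk, had 1139 CPM in stimulated KO cells against 1041 in WT, and 1274 in unstimulated KO cells against 1230.4 in WT. Its ratio was 0.13 ± 0.01 in stimulated and 0.05 ± 0.01 in unstimulated cells, both called. Rplp1 had 645 against 594 CPM in stimulated KO and WT cells and 759 against 686 in unstimulated KO and WT cells, with ratios of 0.12 ± 0.01 and 0.15 ± 0.01. Rplp1 and Rplp2 form dimers on the stalk, but Rplp2 was read far less, at 14.2 against 11.9 CPM in stimulated KO and WT cells and 16.8 against 12.3 in unstimulated KO and WT cells. Its ratio of 0.45 ± 0.09 was called in unstimulated cells and that of 0.25 ± 0.09 was not called in stimulated cells. Rpsa, a small-subunit protein first described as a laminin receptor, had 915 against 838 CPM in stimulated KO and WT cells, and 1105 against 1019.8 in unstimulated KO and WT cells. Its ratios of 0.13 ± 0.01 and 0.12 ± 0.01 were both called.

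**Figure D2:**
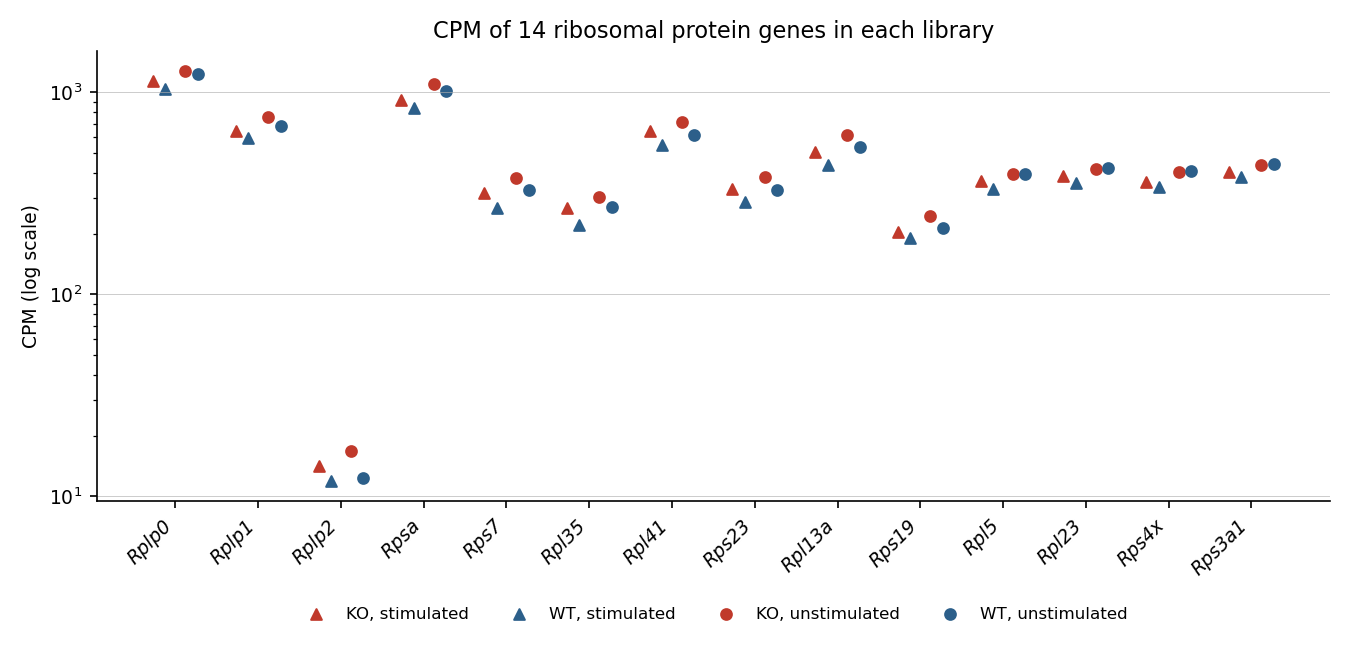
CPM (log scale) of 14 ribosomal protein genes in each of the 4 libraries, stimulated KO and WT as triangles and unstimulated KO and WT as circles, with 1 library per point. KO lies above WT for Rps7, Rpl35, Rpl41, Rps23 and Rpl13a in both states, and WT lies above KO in unstimulated cells for Rpl23, Rps4x and Rps3a1.

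Read numbers of these genes also reflect how reads with several possible sources were counted, since many ribosomal protein genes have processed pseudogenes. For each gene the share of 50-base stretches of its main GENCODE transcript found in no transcript of another gene was computed. It was at least 50% for 36 genes and lower for 48. The 36 genes had median ratios of 0.16 in stimulated and 0.11 in unstimulated cells, and 27 and 22 of them were called higher. The 48 others had medians of 0.13 and 0.11, and 41 and 31 were called higher. Rps27, with few reads, had an unshared share of 1.35%, whereas Rpl10 had 7.87% and 20098 reads in its lowest library. The sources used here do not say how shared reads were assigned, and its part in single ratios was not tested.

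Of the paralogs, 2 of 7 were called higher in stimulated and 0 of 7 in unstimulated KO cells, and 0 were called lower. Rpl22l1 and Rpl22 encode closely related large-subunit proteins. Rpl22l1 had 42.2 against 35.9 CPM in stimulated KO and WT cells, called at 0.23 ± 0.05, and 46.6 against 44.4 in unstimulated KO and WT cells, not called at 0.07 ± 0.05. Rpl22 was called in both states, at 0.23 ± 0.03 and 0.16 ± 0.02. Rps27l, a known p53 target, had 104 against 92.3 CPM in stimulated KO and WT cells, called at 0.17 ± 0.03, and 94.4 against 88.9 in unstimulated KO and WT cells, not called at 0.09 ± 0.04. Its parent Rps27 had under 60 reads in every library, so the pair cannot be compared.

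Rpl36al and its parent Rpl36a were called in neither state, with ratios of 0.10 ± 0.04 and 0.14 ± 0.04 in stimulated cells and 0.13 ± 0.04 and 0.06 ± 0.04 in unstimulated cells. Rpl7l1, a nucleolar relative of Rpl7, had 87.5 against 84.9 CPM in stimulated KO and WT cells and 91.7 against 97.8 in unstimulated KO and WT cells. Its ratios, 0.04 ± 0.04 and -0.09 ± 0.03, were not called. Rps4l, listed in the annotation as a transcribed pseudogene, was not called at 0.02 ± 0.15 and 0.04 ± 0.16, while its parent Rps4x is given above. The striated-muscle form Rpl3l had 49 reads in stimulated KO cells against 40 in WT, and 76 in unstimulated KO cells against 55 in WT. Its parent Rpl3 was called in both states at 0.10 ± 0.02. Rpl39l, known from the testis, had 9 reads in stimulated KO cells against 6 in WT and 11 in unstimulated KO cells against 6 in WT, and its parent Rpl39 was called at 0.18 ± 0.02 and 0.14 ± 0.02. Rps19bp1 was not called, at 0.14 ± 0.07 and 0.20 ± 0.07.

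Fau and Gnb2l1, ribosomal protein genes whose symbols fall outside the naming rule, were also higher in KO cells. Fau encodes a ribosomal protein fused to a ubiquitin-like domain, and Gnb2l1 encodes the scaffold protein RACK1 of the small subunit. Fau had 562 against 495 CPM in stimulated KO and WT cells and 627 against 542 in unstimulated KO and WT cells. Gnb2l1 had 433 against 392.3 in stimulated KO and WT cells and 484 against 453 in unstimulated KO and WT cells. Both were called higher in each state, Fau at 0.18 ± 0.01 and 0.21 ± 0.01 and Gnb2l1 at 0.14 ± 0.02 and 0.10 ± 0.02.

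The other genes of translation were counted by the same calls and against the same shares of all genes. Of 12 elongation and termination factors, 6 were called higher in stimulated and 4 in unstimulated KO cells, and 0 lower, with medians of 0.11 and 0.10. Eif5a, which helps the ribosome past stalling residues, was called at 0.22 ± 0.02 and 0.19 ± 0.02, and Abce1, which splits ribosomes, was not called at -0.02 ± 0.04 and -0.04 ± 0.03. Of 24 mRNAs known to carry a TOP motif without encoding ribosomal proteins, 11 were called higher and 1 lower in stimulated KO cells, and 4 higher and 2 lower in unstimulated KO cells. Eef1a1, Eef1b2, Eef1d, Eef1g and Eef2 are in this list and also among the 12 factors above. All of them were called higher in stimulated KO cells, and Eef1a1, Eef1b2 and Eef1g in unstimulated KO cells, so the counts of these lists are not independent. Lists given further below share genes as well, such as Btf3 and Naca with the list for handling of the nascent chain. The median of these 24 was 0.11 in stimulated and 0.05 in unstimulated cells. Their median counting error of 0.02 in each state was near that of all genes with at least 5000 reads. Of those deeply read genes 28.9% were called higher and 24.0% lower in stimulated KO cells, and 24.8% and 19.3% in unstimulated KO cells. Among the 24 mRNAs Pabpc1, the poly(A)-binding protein, was called lower in both states at -0.04 ± 0.01 and -0.06 ± 0.01.

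Of 51 initiation factors and their regulators, 8 were called higher and 3 lower in stimulated KO cells, and 4 higher and 3 lower in unstimulated KO cells, with medians of 0.04 and 0.00. Eif2b2, a subunit of the exchange factor for eIF2, was highest at 0.35 ± 0.04 in stimulated and 0.29 ± 0.04 in unstimulated cells. Eif2ak2, the interferon-induced kinase PKR, was lowest in stimulated cells at -0.60 ± 0.04, and Eif4e, the cap-binding protein, was lowest in unstimulated cells at -0.25 ± 0.03.

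The 77 genes of the mitochondrial ribosome, built from a separate set of proteins, were called higher in 7 cases in stimulated and 1 in unstimulated KO cells, and 0 lower, with medians of 0.09 and 0.05. Mrpl53 was highest in stimulated cells at 0.46 ± 0.08. Of 48 ribosome biogenesis genes, 1 was called higher in stimulated KO cells (Nhp2 at 0.25 ± 0.06), and 1 lower in unstimulated KO cells. Their medians were 0.07 and 0.00. None of 20 genes of RNA polymerase I and its cofactors was called in either state, and their medians were 0.02 and 0.05. These lists hold fewer reads per gene than the ribosomal proteins, so the counts of calls are not on equal terms.

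**Figure D3:**
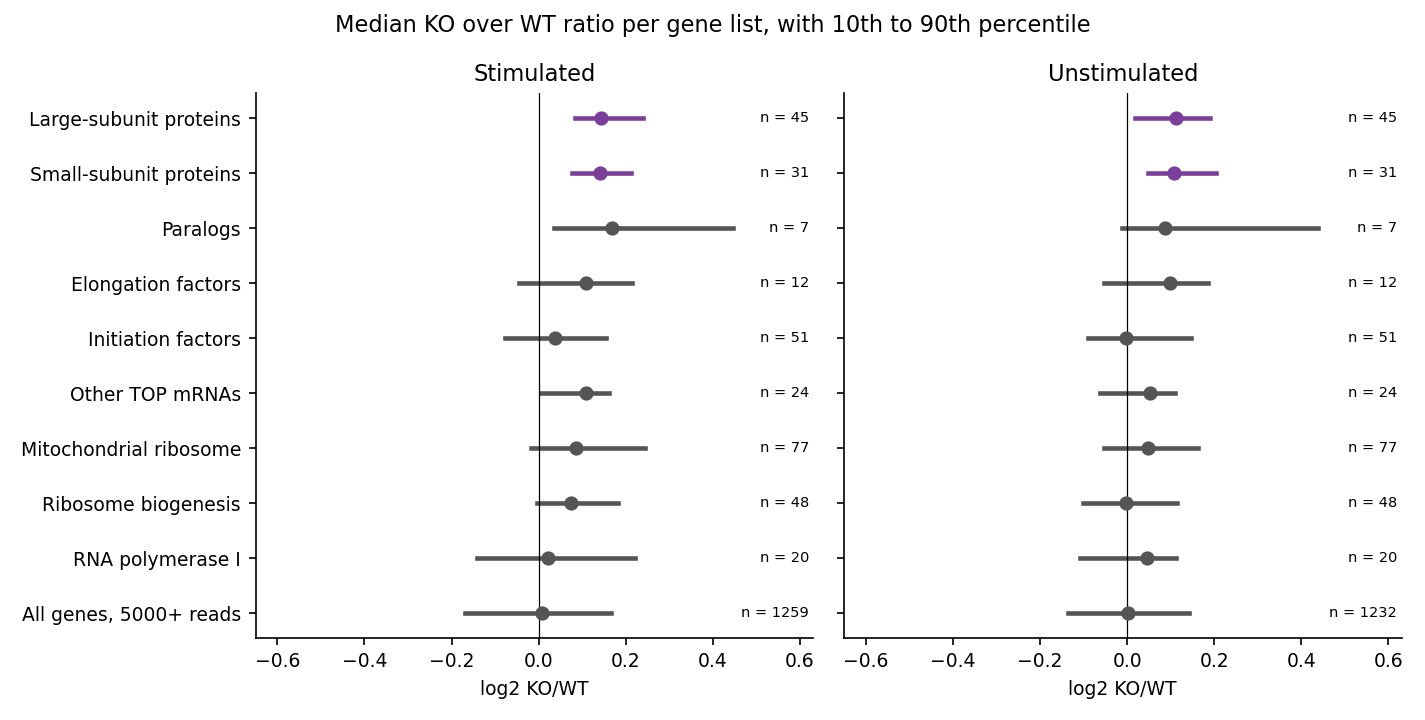
Median log2 KO/WT ratio (points) and 10th to 90th percentile over genes (lines) for ribosomal protein genes by subunit, other lists of translation genes, and all genes with at least 5000 reads in both libraries, in stimulated (left) and unstimulated cells (right). The medians of both subunits lie at 0.14 and 0.11, and that of all genes with 5000 reads lies at 0.01 and 0.00.

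Of 35 genes of mTORC1 signalling and TOP mRNA control, 1 was called higher and 5 lower in stimulated KO cells, and 0 higher and 3 lower in unstimulated KO cells. Among all genes, 5.36% were called higher and 6.54% lower in stimulated KO cells, and 4.7% and 4.27% in unstimulated KO cells. The medians of the 35 were -0.002 and -0.008, and their lowest ratios were -1.08 in stimulated and -0.25 in unstimulated cells. Ddit4, an inhibitor of mTORC1, was called lower in both states at -0.35 ± 0.03 and -0.23 ± 0.03. Of 9 transcription factors linked to ribosomal protein genes, 0 were called in stimulated cells, and 1 was called higher and 2 lower in unstimulated KO cells. Myc, which drives ribosome production in many cells, had 3.92 CPM in stimulated KO cells against 3.02 in WT, not called at 0.37 ± 0.18. In unstimulated cells it had 8.36 in KO against 4.96 in WT, called at 0.75 ± 0.14. Yy1, at -0.20, and Sp3, at -0.17, were the 2 called lower in unstimulated cells. Any part of these genes in the ribosomal protein differences was not tested.

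The counts of the smaller lists are set against all genes, of which 5.36% were called higher and 6.54% lower in stimulated KO cells, and 4.7% higher and 4.27% lower in unstimulated KO cells. Of 15 genes for handling of the nascent chain, 4 were called higher and 0 lower in stimulated KO cells, and 2 higher and 1 lower in unstimulated KO cells. Of 15 genes of ribosome quality control, 0 were called higher and 3 lower in stimulated KO cells, and 1 higher and 3 lower in unstimulated KO cells. Of 12 genes of the p53 response to ribosome stress, 1 was called higher and 3 lower in stimulated KO cells, and 2 higher and 2 lower in unstimulated KO cells. Of 10 chaperones and carriers of ribosomal proteins, 2 were called higher and 1 lower in stimulated KO cells, and 0 in unstimulated KO cells. Of 11 hosts of small nucleolar RNAs, 2 were called higher in stimulated and 1 in unstimulated KO cells, and 0 lower.

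Coding length moved with the ratios in these libraries, and ribosomal proteins are short. Over genes outside the list with at least 5000 reads, the median ratio was 0.08 for 150 codons or fewer and -0.05 for over 600 codons in stimulated cells. In unstimulated cells it was 0.03 and -0.01. In the same short class 56.8% of the other genes were called higher in stimulated and 37.1% in unstimulated KO cells. The 25 ribosomal protein genes of that class had medians of 0.17 and 0.12, and 25 and 21 of them were called higher. The 35 with more than 150 and up to 300 codons had medians of 0.13 and 0.08, where other genes of that class had 0.03 and 0.00, and 33 and 23 were called higher. Centred on the median of genes of 300 codons or fewer, the median of all 84 genes was 0.09 in stimulated and 0.08 in unstimulated cells. The part of length in the differences was not tested; these classes were formed after the values were seen.

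**Figure D4:**
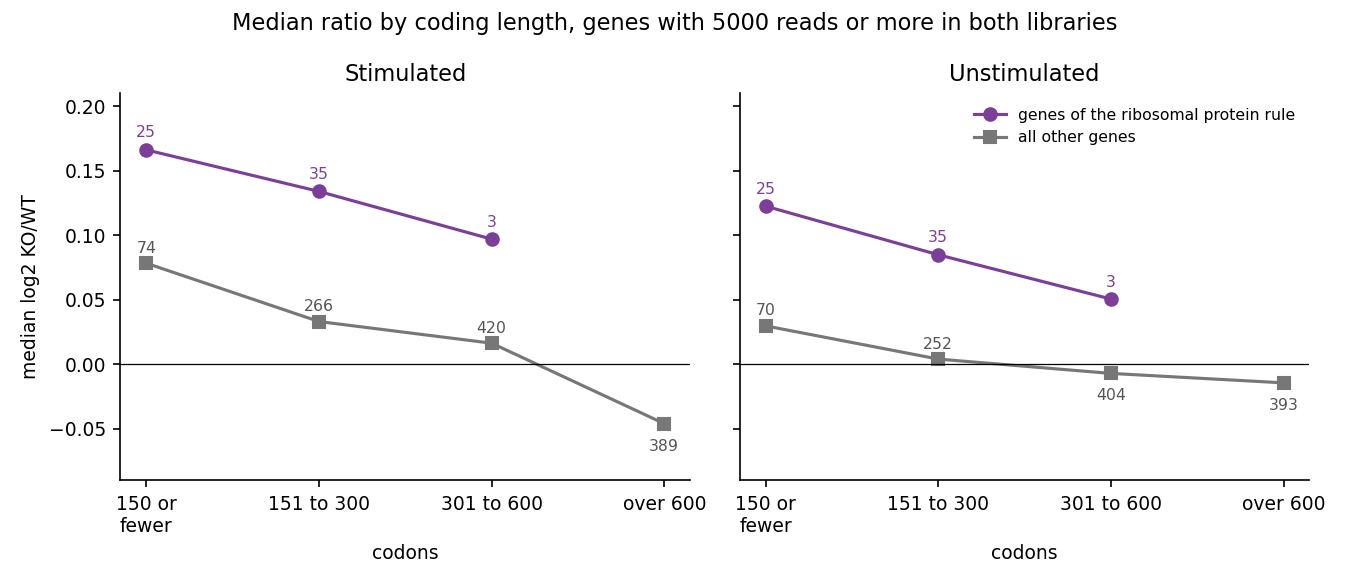
Median log2 KO/WT ratio by coding length for genes of the ribosomal protein rule and for all other genes with at least 5000 reads in both libraries, in stimulated (left) and unstimulated cells (right); numbers give the genes behind each point. Both lines fall with length, and the ribosomal protein genes lie above the others in each class that holds them.

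Markers of other cells moved with genotype as well. The summed level of 10 fibroblast markers was 56.3 CPM in stimulated KO cells against 23.0 in WT, and 25.6 in unstimulated KO cells against 16.2 in WT; Col3a1 had 226 reads against 3 in stimulated KO and WT cells. Of these 10 markers, 6 were called higher and 1 lower in stimulated KO cells, and 4 higher and 0 lower in unstimulated KO cells. For this and the other marker lists, the shares of all genes called were 5.36% higher and 6.54% lower in stimulated KO cells. In unstimulated KO cells they were 4.7% and 4.27%. The summed level of 8 lymphocyte markers was 9.41 against 5.65 CPM in stimulated KO and WT cells, and 12.7 against 7.64 in unstimulated KO and WT cells, with 0 and 1 called higher. The summed level of 12 proliferation markers was 256 against 249.8 CPM in stimulated KO and WT cells and 263 against 263 in unstimulated KO and WT cells, with 0 called. Markers of macrophages and monocytes, of which 8 were listed, included 4 called higher and 1 called lower in each state, with sums of 867 against 855 CPM in stimulated KO and WT cells and 996 against 1027 in unstimulated KO and WT cells. The neutrophil markers lay the other way, with a summed 347 CPM over 4 listed markers in stimulated KO cells against 395 in WT, and 251 over 5 listed markers in unstimulated KO cells against 316 in WT. Of them 1 was called lower in stimulated and 2 in unstimulated KO cells, and 0 higher. None of the 5 erythroid markers was listed in either comparison. The part of other cells in the ribosomal protein differences was not tested.

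Taken over both states, with the 2 ratios of each gene as the values of a limma fit across all 14823 genes, the median genotype term of the 84 genes was 0.13. No gene was called at an adjusted p under 0.05, 0.0% of all genes and 0 of the 84, where the smallest adjusted p was 0.441. At an unadjusted p under 0.05 there were 7 of the 84 genes (Rpl39l, Rpl3l, Rpl41, Rplp2, Rps14, Rps23 and Rps7), against 10.2% of all genes. With the variance modelled as a trend on counting precision, 26 of the 84 were called higher and 0 lower, where 3.66% of all genes were called higher and 3.54% lower. With each ratio weighted by its counting precision, 42 were called higher and 0 lower, where 2.21% of all genes were called higher and 1.6% lower. On simulated data of this design the fit with neither trend nor weights called no changed gene, even at large changes. Its lack of calls therefore says nothing of the 84 genes. Of genes changed 1.2-fold in those data, the fit with a trend called 84% and the weighted fit 78%. The trend and weighted fits also called 9 and 14 unchanged genes. The simulated ratios held counting error and a small added random error, with no variation between animals or cultures. These shares therefore do not show how the fits perform on real libraries. Changes under 1.2-fold, where most of the 84 genes lie, were not tested in this way. With 1 library per group these fits treat the states as replicates of the genotype difference.

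The KO difference was somewhat larger in stimulated cells. The stimulated minus unstimulated ratio had a median of 0.05 over the 84 genes and of 0.00 over all genes, and it was above 0 for 64 of the 84. It passed 3 counting errors upward for 15 genes and downward for 1, where 3.52% of all genes did so upward and 3.95% downward. The 15 include Rplp0 with 0.08 ± 0.01, Rpl23 with 0.12 ± 0.02, Rpl5 with 0.12 ± 0.02 and Rps4x with 0.11 ± 0.02. The exception is Rps19 with -0.11 ± 0.03. The direction depends on removing the library totals, since with the ratios as deposited, which hold them, the median difference was -0.18. Those ratios shift every gene, and the median of all genes was -0.03 in stimulated and 0.19 in unstimulated cells. Centred on the median gene, the difference of the 84 genes was 0.04, and centred on genes of 300 codons or fewer it was 0.02. Over the 63 genes with at least 5000 reads in every library the ratios of the 2 states went together, with Pearson's r of 0.64 and Spearman's rho of 0.58, against 0.67 and 0.65 over all 1112 genes of that depth. These values run across genes, which share the same 4 libraries and are not independent.

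Stimulation itself left ribosomal protein messages close to the median gene or slightly below it. This comparison was added after the read numbers had been recovered. In CPM, 79 of the 84 genes were lower in stimulated than in unstimulated KO cells, and 80 were lower in stimulated than in unstimulated WT cells. The median gene of all genes was also lower in stimulated cells, by log2 -0.15 in KO and -0.14 in WT cells, so changes are given relative to it. On that scale the median of the 84 genes was -0.04 in KO cells and -0.09 in WT cells, and 52 genes were below the median gene in both, where 38.0% of all genes were. Rpl23, Rpl5 and Rps4x, called in stimulated cells alone, were 0.03, 0.03 and 0.00 from it in KO cells and -0.11, -0.10 and -0.12 in WT cells. Past 1.2-fold below the median gene lay 1 of the 84 genes in KO cells and 2 in WT cells, where 21.7% and 21.4% of all genes did so, and 4 and 2 lay past it above, where 20.7% and 22.0% of all genes did so.

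Relative to the median gene, Rps27l was higher after stimulation, by 0.29 ± 0.03 in KO and 0.20 ± 0.04 in WT cells. Rpl24, a large-subunit protein at the subunit interface, had 0.11 ± 0.02 and 0.08 ± 0.02. In a limma fit of the stimulation change over both genotypes, 0 of the 84 genes and 0.0% of 14716 genes were called in either direction at an adjusted p under 0.05. The smallest adjusted p of the 84 was 0.101, and 3 of the 84 passed an unadjusted p under 0.05, against 29.3% of all genes.

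**Figure D5:**
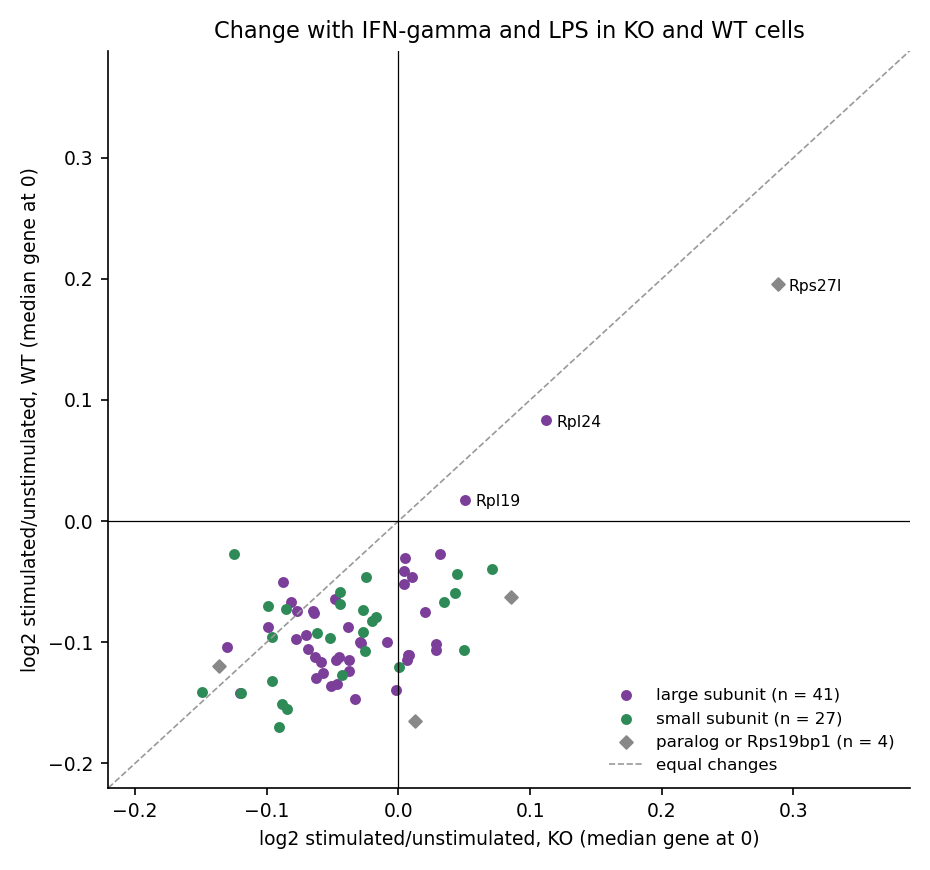
Log2 stimulated/unstimulated change of CPM, with the median gene set to 0, in KO cells (horizontal axis) and WT cells (vertical axis) for 72 genes with at least 1000 reads in every library. Most points lie below 0 in WT cells, and Rps27l lies at 0.29 in KO and 0.20 in WT cells.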

How the data were processed

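Per the labels' protocols, RNA was isolated with the RNeasy kit and made into strand-specific TruSeq mRNA libraries. The submitters' processing notes name HTSeq 0.6.0, FastQC 0.10.1 and the build mm10; the sources used here do not name an aligner, annotation, scaling or test. Per the file headers, the authors deposited a log2 fold change of KO over WT for each gene and state. The second measure is, from its values, −log10 of a p-value as the authors deposited it, with a highest value of 150 in the stimulated and 100 in the unstimulated table.

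Those values are matched by a normal test of the ratio of 2 read numbers, and the reads were recovered by solving it; this is a derivation from the deposited values and was chosen after they were seen. Pairs of whole numbers whose log2 ratio lies within 2e-09 of the deposited one were found for 99.5% of genes in the stimulated and 99.6% in the unstimulated table, with a single pair for each of the 84 genes. The 50 and 51 genes at the highest p gave no reads. Genes with 0 reads in a library were entered at 0.5 by the authors (19 and 13 genes). Library totals were inferred from the well-read genes, with an interquartile range divided by 2 of 0.468% and 1.00%. Ratios were centred at the deposited log2 ratio where p nears 1, -0.036 in stimulated and 0.191 in unstimulated cells.

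Fits used limma 3.58.1 in R 4.3.3; other values came from Python 3.11.15 with scipy 1.17.1. The main fit has no trend and no weights. Transcript lengths came from GENCODE M21 (GRCm38), using the principal transcript with the longest coding sequence. Methods were tested on simulated data. Members, lists and named genes were chosen with earlier results of these data known: the 8 highest and 8 lowest members per state whose counting error does not exceed the error that 50 reads give, all paralogs with their parents, the stalk proteins and Rpsa, and of other lists members from the 3 highest and 3 lowest. Rpl13a, Rps19bp1, Rpl24, Rpl4 and Rpl7a were named after their values were seen. Some single genes that this rule names are not reported here; the counts and medians include them.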

Additional observations from a re-analysis of the deposited data

How the results depend on the processing

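No paired analysis was possible because each group holds 1 library and the labels give no replicate numbers; for the same reason no replicate could be left out. Of 76 alternative values, 50 stayed the same, 13 were weaker, 5 stronger, 7 moved and 1 reversed. The calls of KO against WT rest on the deposited p-values, which no centring changes. Under the centrings only their direction could change, so their equal counts, which are among the 50, are no test. The counts of called genes stayed within 1.5 times under the read filters and the looser threshold of 0.05. That threshold gave 72 in stimulated and 65 in unstimulated cells, with 1 lower in the unstimulated. Among the 36 genes with mostly unshared sequence, 27 and 22 were called, from fewer genes. With the ratios as deposited, which hold the library totals, the median ratio was 0.11 in stimulated and 0.30 in unstimulated cells. Every gene is shifted in these ratios, and the median of all genes was -0.03 in stimulated and 0.19 in unstimulated cells. On them 3 and 57 genes passed 1.2-fold upward, for which no share of all genes is given here. The difference between the states reversed to -0.18 on these shifted ratios. Centred on genes of 300 codons or fewer, an alternative chosen after seeing the data in place of a planned centring on RefSeq protein length that was not run, the medians were 0.091 and 0.080, 3 genes passed 1.2-fold in stimulated cells, and the difference between states was 0.024. With 50 reads or more in each library, 2 genes passed 1.2-fold upward in stimulated cells; without paralogs and Rps19bp1, 3 did in each state; at 1.5-fold, 1 did in each state. The genotype term called 26 genes with a trend on precision and 42 with weights. For stimulation, alternatives chosen after seeing the data gave medians of -0.19 in KO and -0.23 in WT cells in plain CPM, with 9 and 18 genes past 1.2-fold lower; with 50 reads or more, 0 and 0 were, and without paralogs and Rps19bp1, 0 and 1. With the 50-read filter the stimulation fit called 3 of 79 genes higher and 0 lower, where the main fit called 0. No share of all genes is given here for that filtered fit or for the calls at the looser threshold of 0.05. Where no construction of an alternative shows it, the cause was not tested. Depth limits Rpl30, Rpl34, Rpl39l, Rpl3l and Rps27, each under 50 reads in a library.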
